A study of Sus scrofa with 21 samples.

Results

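The potassium, sodium and pacemaker channel genes were 45 genes of the 25880 in the deposited count table for pig heart. They were chosen by name, as rows whose gene name starts with KCN, with SCN and a digit, or with HCN and a digit, and by level, as 1 CPM or more in at least 2 libraries, where CPM is the read count scaled to the total of the library. Of 106 rows with such a name, 45 passed. All 45 also passed the filter on low counts and were among the 15359 genes tested. The members just inside the limit were KCNJ14, KCNS3 and KCNMB4, whose second-highest libraries stood at 1.24, 1.10 and 1.09 CPM. The names just outside were KCND1, SCN8A and KCNK2, at 0.950, 0.941 and 0.924 CPM. The 45 comprised 8 voltage-gated potassium channels, 12 potassium channel partner subunits, 6 inward rectifiers, 4 calcium- and sodium-activated potassium channels, 2 tandem-pore potassium channels, 5 sodium channel alpha subunits, 4 sodium channel beta subunits and all 4 HCN pacemaker channels. Some rows carried no name in the deposited table and were named by gene ID only from a reference table, so they are not members. Among them were KCNE1, the partner of KCNQ1, at 24.8 to 71.1 CPM over the 21 libraries, and KCNJ3, the partner of KCNJ5, at 38.5 to 127 CPM.

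The study sequenced total RNA of heart tissue from 21 piglets, each giving 1 library. Infarcted (MI) hearts came from pigs whose left descending coronary artery had been tied permanently on postnatal day 1, with tissue taken from the border zone of the ischaemic area on day 7 (3 pigs), day 14 (3 pigs) or day 28 (2 pigs). Naive hearts gave the corresponding region on day 1 (2 pigs), day 3 (2 pigs), day 7 (3 pigs), day 14 (3 pigs) or day 28 (3 pigs). The sample titles call these pigs naive, whereas the protocol describes age-matched pigs that went through the operation without the tie, and the sources do not settle which of these holds. All pigs were raised on colostrum and milk with iron. Breed, sex, litter and library batch are not stated in the labels, and nothing there says that pigs of a group came from separate litters. The p-values measure the spread between these pigs.

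Total counts were 37002909 to 95559841 per library, so that 1 CPM stood for 37.0 to 95.6 reads. Mitochondrial transcripts took 15.8% to 34.6% of the counts, with the highest share in MI day 28 replicate 1. Of 11 cardiomyocyte markers present, TNNI3 was listed at 0 in all 21 libraries, and the other 10 summed to between 39575 and 102185 CPM. Macrophage, fibroblast, endothelial and smooth muscle markers were also present in every group, so levels are those of mixed tissue, in which fewer cells of a type and less RNA per cell cannot be told apart. A set of 4 libraries stood apart from the other 17, with 5.32 to 11.6 CPM of the unnamed gene ENSSSCG00000035520 against 3183 to 7206 CPM. On the MI side these were replicate 3 of day 7 and replicate 2 of day 28, and among naive hearts replicate 3 of day 14 and replicate 2 of day 28. Day 28 values below are also given without them where that moved the value by over 1.5 times or changed a call or a direction, with 1 MI and 2 naive hearts left.

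Voltage-gated sodium channels open the cardiac action potential: an alpha subunit forms the pore, and beta subunits tune its gating and place it in the membrane. Potassium channels end it, the voltage-gated ones during repolarization and the inward rectifiers by holding the resting potential, while HCN channels carry the inward current that lets pacemaker cells fire on their own. Calcium-activated potassium channels link intracellular calcium to the membrane potential in cardiomyocytes and in vascular smooth muscle.

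KCNQ5 was higher and KCNN2 lower in MI than in naive hearts by the test described below. The 300 bases before the RefSeq start of each gene are shown because the genes moved in different directions and their promoters differ in base composition. Reading is 5′ to 3′ on the plus strand of Sscrofa11.1, and capitals mark matches to the motifs searched. KCNQ5 lies on chromosome 1 (52435332 to 52939705) and KCNN2 on chromosome 2 (118439328 to 118882299), each on the plus strand, and neither shares exon bases with another RefSeq gene.
KCNQ5 promoter, chr1:52435032-52435331: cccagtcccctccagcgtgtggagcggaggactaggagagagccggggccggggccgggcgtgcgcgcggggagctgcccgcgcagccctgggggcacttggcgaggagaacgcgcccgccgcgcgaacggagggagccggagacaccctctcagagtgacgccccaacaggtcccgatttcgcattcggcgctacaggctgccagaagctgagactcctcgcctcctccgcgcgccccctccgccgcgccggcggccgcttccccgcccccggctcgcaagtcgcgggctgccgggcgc
KCNN2 promoter, chr2:118439028-118439327: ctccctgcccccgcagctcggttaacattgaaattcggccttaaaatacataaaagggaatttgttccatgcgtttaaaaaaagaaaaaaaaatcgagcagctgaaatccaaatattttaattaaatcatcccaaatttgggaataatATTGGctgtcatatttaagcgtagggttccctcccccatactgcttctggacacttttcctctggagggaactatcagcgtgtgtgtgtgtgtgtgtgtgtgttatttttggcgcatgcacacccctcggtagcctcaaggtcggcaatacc
The KCNQ5 window had 76.0% G and C, more than 92.4% of the 19569 windows of that length, and the KCNN2 window 43.0% (more than 15.4%), around a median of 56.7%. Both strands were searched for the TATA box (TATAAA), the AP-1 motif (TGANTCA), the GATA motif (AGATAA), the CCAAT box and the MEF2 core, which is CTA and TAG with any 4 bases between them. The KCNN2 window held 1 CCAAT box, read on the minus strand and present in 35.9%, and the KCNQ5 window held none of the 5. Of all windows, 6.34% held an AP-1 motif, 11.9% held a TATA box, 2.88% a MEF2 core and 1964 of the 19569 a GATA motif. These matches describe letters in a window and are not evidence of a site in use.

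A few members made up most of the channel RNA. By median over the 21 libraries, 7 members stood at 50 CPM or more, 7 at 5 to under 50 CPM, 12 at 1 to under 5 CPM and 19 under 1 CPM. The 45 summed to 699 to 1593 CPM, of which the 7 abundant members took 69.6% to 93.6%. Among these were KCNH2 and KCNQ1, the pores of the rapid and slow delayed rectifiers, and the inward rectifiers KCNJ2 and KCNJ4 of the resting potential, KCNJ5 of the acetylcholine-activated channel and KCNJ8 of the ATP-sensitive channel.

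KCNJ2 ranged over 29.8 to 289 CPM with a median of 146, and KCNJ4 over 62.2 to 298 CPM with a median of 141. KCNJ5 spanned the widest range of the 7, with 15.9 CPM in naive day 1 replicate 2, a median of 194 and 462 CPM in naive day 3 replicate 1. KCNJ8 (82.9 to 223 CPM, median 101), KCNQ1 (55.8 to 148 CPM, median 105) and KCNH2 (55.0 to 130 CPM, median 91.6) varied less.

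**Figure D1:**
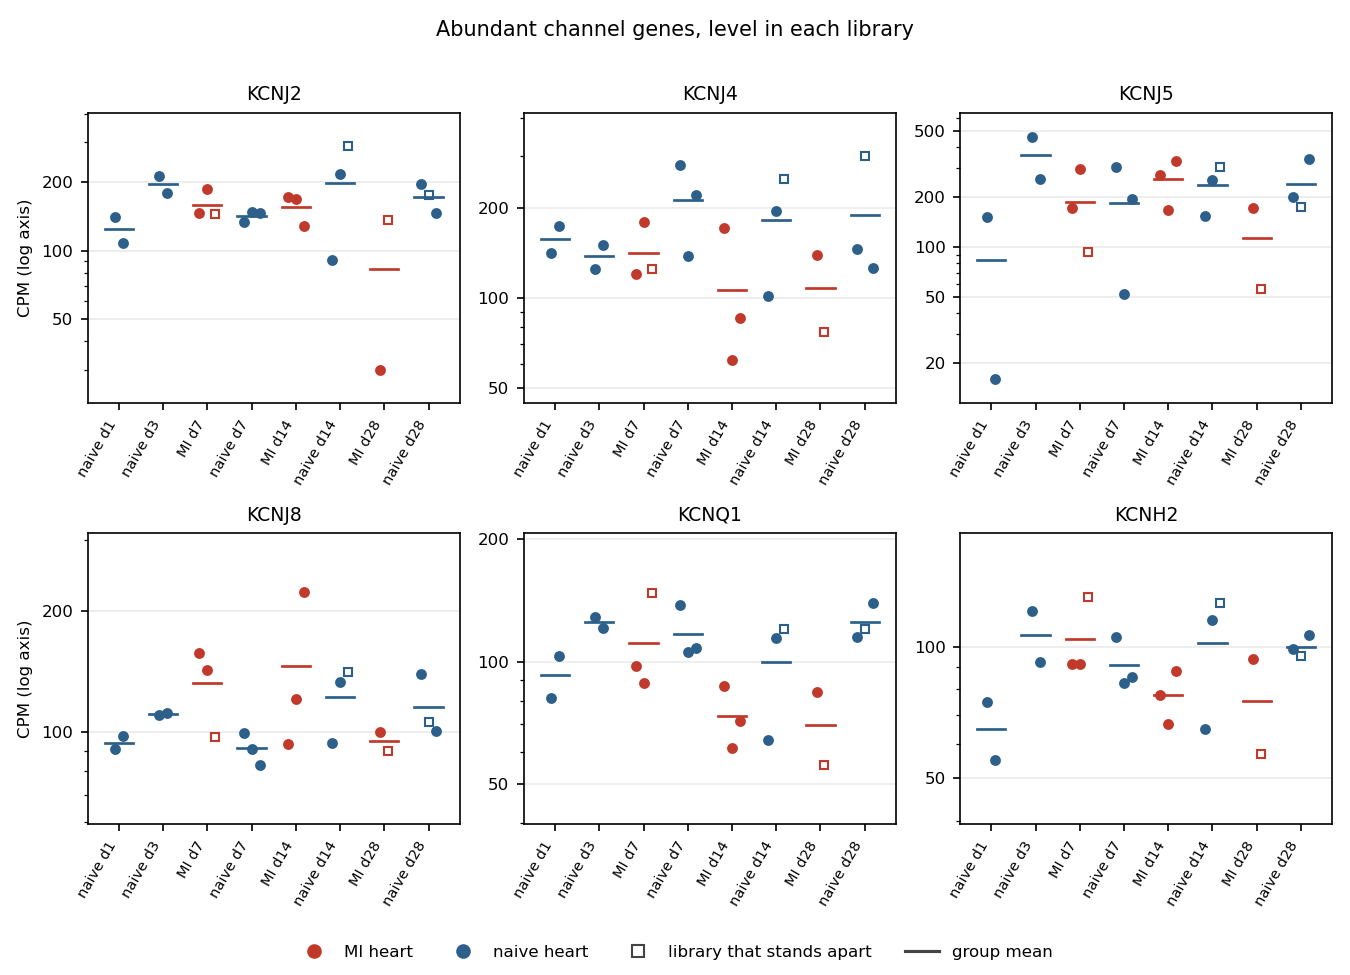
Level of 6 abundant channel genes in each library, in CPM on a log axis, by group; points are pigs, open squares the 4 libraries that stood apart, and lines group means. The MI day 28 hearts were below all naive day 28 hearts for KCNJ2, KCNJ5, KCNJ8, KCNQ1 and KCNH2, and overlapped them for KCNJ4. None of these differences was called by edgeR over all libraries, and 37.8% of all genes tested did not overlap on day 28.

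Levels of different genes can be set side by side only per length. For the 43 members matched to RefSeq by symbol, median CPM was divided by the merged exon length in kilobases. KCNJ5 then led with 97.4 CPM per kb, and among those below it were, in falling order, KCNJ4 (42.5), KCNJ8 (40.2), KCNQ1 (16.3), KCNH2 (15.5), KCNA5 (9.25) and KCNJ2 (9.04), all in CPM per kb. The merged length pools the exons of all RefSeq transcripts, with 16180 bases for KCNJ2, 3322 for KCNJ4 and 2872 for KCNA5. Reads were counted on Ensembl genes, so the low place of KCNJ2 depends on that length. Over the libraries, KCNJ5 spanned 7.98 to 231, KCNJ4 18.7 to 89.7 and KCNJ8 33.1 to 89.0 CPM per kb, so these 3 overlapped. KCNJ18 and KCNT2 had no RefSeq match. KCNJ18 is in human a near-identical copy of KCNJ12, so its counts are uncertain. Exons of HCN3, KCNAB1, KCNAB3, KCNJ2, KCNN3, KCNQ1 and SCN9A overlap another gene, on the opposite strand except for KCNN3, and the strand setting of the counting is unknown from the labels.

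Below the abundant set, KCNA5, the pore of the atrial ultrarapid current, had 11.4 to 55.5 CPM and KCNIP2, the partner of the transient outward channel, 3.56 to 43.1 CPM. KCND2, a pore subunit of that channel, had 0.130 to 1.92 CPM, while the other usual pore genes of that current, KCND3 and KCNA4, were below the limit. Among partner subunits, KCNE3 had 2.78 to 19.1 CPM and KCNE4 0.540 to 1.97 CPM. HCN2, a pacemaker channel, had 2.89 to 14.8 CPM, while HCN3 and HCN4 had medians of 0.944 and 0.224 CPM. SCN7A, which codes for a sodium-sensing relative of the sodium channels, had 1.48 to 18.5 CPM, and SCN3A, SCN4A and SCN9A had medians of 0.660, 1.38 and 0.904 CPM.

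Each MI group was set against naive hearts of the same day with edgeR's quasi-likelihood test, adjusted by Benjamini-Hochberg over the 15359 genes. An adjusted p under 0.05 counts as a call. On day 28, 2 members, KCNQ5 among them, were called higher in MI hearts, where 4.47% of all genes were, and 1 (KCNN2) lower, where 2.38% of all genes were. That is 6.67% of the 45 members, against 6.86% of all genes tested, so the share was near the background. The same 3 members were called for the MI effect averaged over days 7, 14 and 28, against 4.43% of all genes, 2.36% higher and 2.07% lower. That average includes the day 28 libraries and is not separate support. No member was called on day 7 or on day 14, where 0% of all genes were called.

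KCNQ5 codes for a voltage-gated potassium channel of the M-current family, known from neurons and vascular smooth muscle. It had 5.14 and 8.28 CPM in MI day 28 hearts, against 1.11, 0.643 and 1.74 CPM in naive day 28 hearts. Both MI hearts were above every naive heart, and above all other 19 libraries. The log2 fold change was 2.52 (SE 0.46, adjusted p = 0.0131 by edgeR). On day 14 it had 2.04, 2.47 and 3.06 CPM in MI hearts, against 0.698, 0.501 and 1.42 CPM in naive hearts, without overlap but not called (log2 fold change 1.54, SE 0.43, adjusted p = 0.717 by edgeR). On day 7 the groups overlapped, with 2.42, 1.39 and 1.17 CPM in MI hearts and 1.41, 1.53 and 1.22 CPM in naive hearts. Averaged over days the log2 fold change was 1.44 (SE 0.25, adjusted p = 0.0131 by edgeR). The day 28 call held when each of the 5 libraries was left out in turn (adjusted p 0.00413 to 0.0470) and without the 4 libraries that stood apart (1.86, adjusted p = 0.0306), where 1 MI heart was left and assumed to vary like the other groups. It was lost when only the day 28 libraries were fitted (adjusted p = 0.139).

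KCNN2, a small-conductance calcium-activated potassium channel known from neurons and atrial cardiomyocytes, was the 1 member called lower. It had 4.85 and 2.45 CPM in MI day 28 hearts, against 11.8, 8.31 and 13.4 CPM in naive day 28 hearts, without overlap. The log2 fold change was -1.61 (SE 0.40, adjusted p = 0.0301 by edgeR). On day 7 the groups did not overlap either, with 6.54, 9.55 and 5.64 CPM in MI hearts against 13.7, 13.1 and 11.1 CPM in naive hearts, and the difference was not called (log2 fold change -0.80, adjusted p = 0.347 by edgeR). On day 14 it had 9.49, 3.59 and 7.61 CPM in MI hearts and 11.8, 12.2 and 8.59 CPM in naive hearts, which overlapped. The average over days was -1.02 (SE 0.20, adjusted p = 0.0178 by edgeR), and this call held without each of the 17 libraries in turn and under every other setting tried. The day 28 call was lost without MI day 28 replicate 2 (-1.18, adjusted p = 0.142), without any of naive day 28 replicates 1, 2 and 3 (adjusted p = 0.0605, 0.0509 and 0.0992) and without the 4 libraries that stood apart (-1.37, adjusted p = 0.0913). It was also lost when only the day 28 libraries were fitted (-1.57, adjusted p = 0.168) and with voom (-1.65, adjusted p = 0.296).

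**Figure D2:**
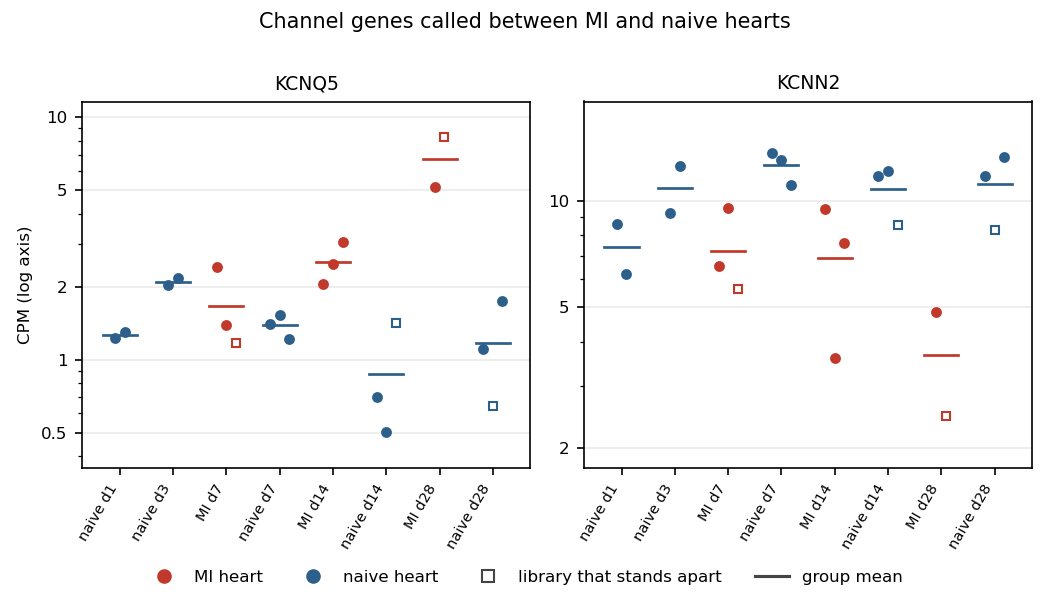
Level of KCNQ5 and KCNN2 in each library, in CPM on log axes, by group; points are pigs, open squares the 4 libraries that stood apart, and lines group means. On day 28 both MI hearts were above all 3 naive hearts for KCNQ5 and below them for KCNN2.

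Cell type markers also differed between MI and naive hearts on day 28, some of them in only 1 of the MI hearts. The 11 cardiomyocyte markers summed to 48247 and 39575 CPM in MI hearts, against 77366, 90172 and 85818 CPM in naive hearts. Of the 10 tested, 4 were called lower and 0 higher, with a median log2 fold change of -1.05. The 10 fibroblast markers summed to 1927 and 20373 CPM in MI hearts, against 3858 to 6627 CPM in naive hearts, and 1 was called higher. The 12 macrophage markers summed to 334 and 3779 CPM, against 73.6 to 372 CPM, and 9 were called higher. The 10 smooth muscle markers summed to 1814 and 854 CPM, against 1035 to 1087 CPM, and 5 were called higher. The 9 endothelial markers summed to 1394 and 972 CPM, against 762 to 1118 CPM, and 0 were called. The 13 Schwann cell and nerve markers summed to 42.0 and 16.5 CPM, against 7.38 to 15.1 CPM, and 0 of the 9 tested were called. The 12 lymphocyte markers summed to 16.8 and 232 CPM, against 7.91 to 33.6 CPM, with 4 called higher, and the 6 adipocyte markers to 668 and 143 CPM, against 133 to 244 CPM, with 3 of 5 called higher. No macrophage, fibroblast or smooth muscle marker was at 0 in any day 28 library. The MI day 28 hearts differed from each other in some of these sums. Replicate 2 was high in macrophage and fibroblast markers, and replicate 1 in smooth muscle, nerve and adipocyte markers. The cardiomyocyte sum was below all naive day 28 hearts in both MI hearts, as was KCNN2, and KCNQ5 was above them in both. The part of these markers in the channel differences was not tested.

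The 2 MI and 3 naive hearts did not overlap for 15 of the 45 members (33.3%, against 37.8% of all genes tested), 6 higher and 9 lower in MI hearts. DESeq2 on all libraries called 7 members, and 2213 genes in all. The median log2 fold change of the 45 was -0.07, against 0.00 for all genes tested, and 11 members had an unadjusted p under 0.05, against 27% of all genes.

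For the pores of the delayed rectifiers, MI day 28 values lay below naive day 28 values. KCNQ1 had 84.0 and 55.8 CPM in MI hearts, against 115, 121 and 140 CPM in naive hearts (adjusted p = 0.0763 by edgeR for a log2 fold change of -0.84, SE 0.28), and without the 4 libraries that stood apart its log2 fold change was -0.59 (adjusted p = 0.279). KCNH2 had 93.9 and 56.9 CPM in MI hearts, against 98.9, 95.3 and 107 CPM in naive hearts (-0.41, adjusted p = 0.353 by edgeR). The KCNH2 value was -0.12 without the 4 libraries, -0.07 without MI replicate 2 and -0.79 without MI replicate 1. Neither difference was called, and the lower cardiomyocyte markers given above stand beside them.

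Of the 6 inward rectifiers, 5 had lower fitted values in MI day 28 hearts, none called. The groups did not overlap for KCNJ2, KCNJ5, KCNJ8 and KCNJ18 (lower) and KCNJ14 (higher), which is 83.3%, against 37.8% of all genes tested. Some gaps were narrow: the nearest MI and naive values were 171 and 175 CPM for KCNJ5 and 100 and 101 CPM for KCNJ8. KCNJ2 had 29.8 and 137 CPM in MI hearts, against 196, 175 and 146 CPM in naive hearts, so that 1 MI heart was far below and the other just below the naive range (-1.05, SE 0.48, adjusted p = 0.168 by edgeR). The value rested on replicate 1: without it the log2 fold change was -0.31 (adjusted p = 0.704), and without MI replicate 2 it was -2.51 (adjusted p = 0.00922), as also without the 4 libraries that stood apart (adjusted p = 0.00902). KCNJ5 had 171 and 56.1 CPM in MI hearts, against 200, 175 and 342 CPM in naive hearts (-1.07, adjusted p = 0.405 by edgeR), and its value was -0.66 without the 4 libraries that stood apart. KCNJ4 had 140 and 76.9 CPM in MI hearts, against 146, 298 and 126 CPM in naive hearts, which overlapped, and its value of -0.81 was 0.05 without the 4 libraries. KCNJ8 had 100 and 89.8 CPM in MI hearts, against 139, 106 and 101 CPM in naive hearts (-0.28, adjusted p = 0.567 by edgeR). KCNJ14, a low-level rectifier, had 1.62 and 1.03 CPM in MI hearts, against 0.555, 0.405 and 0.779 CPM in naive hearts (1.19, adjusted p = 0.149 by edgeR).

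Some low-level members, KCNK3, KCNMB1, KCNA6 and SCN2B, had large fitted values that came from 1 MI heart. KCNMA1, SCN4B and KCNE5 are given beside them. KCNK3, an acid-sensitive tandem-pore background channel, had 11.2 and 0.694 CPM in MI day 28 hearts, against 0.114, 0.238 and 0.694 CPM in naive day 28 hearts. Its log2 fold change of 4.10 (SE 1.34, adjusted p = 0.0687 by edgeR) was 1.01 without replicate 1, 5.03 (adjusted p = 0.0423) without replicate 2 and 4.82 (adjusted p = 0.0599) without the 4 libraries. DESeq2 called KCNK3 (adjusted p = 0.00798). KCNMB1, the smooth muscle partner of the large-conductance channel, had 8.17 and 1.20 CPM in MI hearts, against 1.17, 0.810 and 0.796 CPM in naive hearts (2.33, adjusted p = 0.0683 by edgeR). Its value was 0.40 without replicate 1 and 3.16 (adjusted p = 0.0262) without replicate 2. KCNMB1 was also called by DESeq2 (adjusted p = 0.0167) and without the 4 libraries that stood apart (3.06, adjusted p = 0.0235). The pore gene of that channel, KCNMA1, was above the naive range in both MI hearts, with 3.23 and 5.96 CPM against 1.19, 0.976 and 0.965 CPM in naive hearts (2.14, adjusted p = 0.117 by edgeR). KCNA6 had 0.0932 and 2.66 CPM in MI hearts, against 0.126, 0 and 0.322 CPM in naive hearts, and was called by DESeq2 but not by edgeR (3.15, adjusted p = 0.100), with -1.23 in edgeR without the 4 libraries. SCN2B differed most within the pair of MI day 28 hearts, at 0.0466 CPM in replicate 1 and 6.14 CPM in replicate 2, against 1.46, 1.19 and 1.29 CPM in naive hearts, and its value of 1.23 was -4.82 without the 4 libraries (adjusted p = 0.0779). SCN4B had 0.0777 and 0.525 CPM in MI hearts, against 0.265, 0.0476 and 1.57 CPM in naive hearts, with -1.07 over all libraries and -3.53 without the 4 (adjusted p = 0.280). KCNE5 was called without the 4 libraries (-4.42, adjusted p = 0.0494) and not with them (-1.90, adjusted p = 0.369).

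HCN2 and HCN4 overlapped between the groups on day 28. HCN2 had 14.8 and 6.40 CPM in MI hearts, against 4.73, 7.57 and 5.86 CPM in naive hearts (0.81, adjusted p = 0.203 by edgeR). The HCN2 value was 0.11 without MI replicate 1, and 1.49 and called without the 4 libraries that stood apart (adjusted p = 0.0491). HCN4, the main sinus node isoform, had 0.0466 and 0.254 CPM in MI hearts, against 0.114, 0.0238 and 0.559 CPM in naive hearts (-0.64, and -2.78 without the 4 libraries, adjusted p = 0.822 and 0.362 by edgeR). The transient outward partner KCNIP2 had 16.1 and 25.8 CPM in MI hearts, against 20.2, 43.1 and 3.56 CPM in naive hearts, so both MI values lay within the naive range (-0.09, and 0.45 without the 4 libraries). Partner subunits KCNE3, KCNE4 and the 3 KCNAB genes also overlapped. Without the 4 libraries, KCNE3 was at -0.91 rather than -0.23 and KCNAB2 at -2.05 rather than 0.49, neither called (adjusted p = 0.267 and 0.0703).

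**Figure D3:**
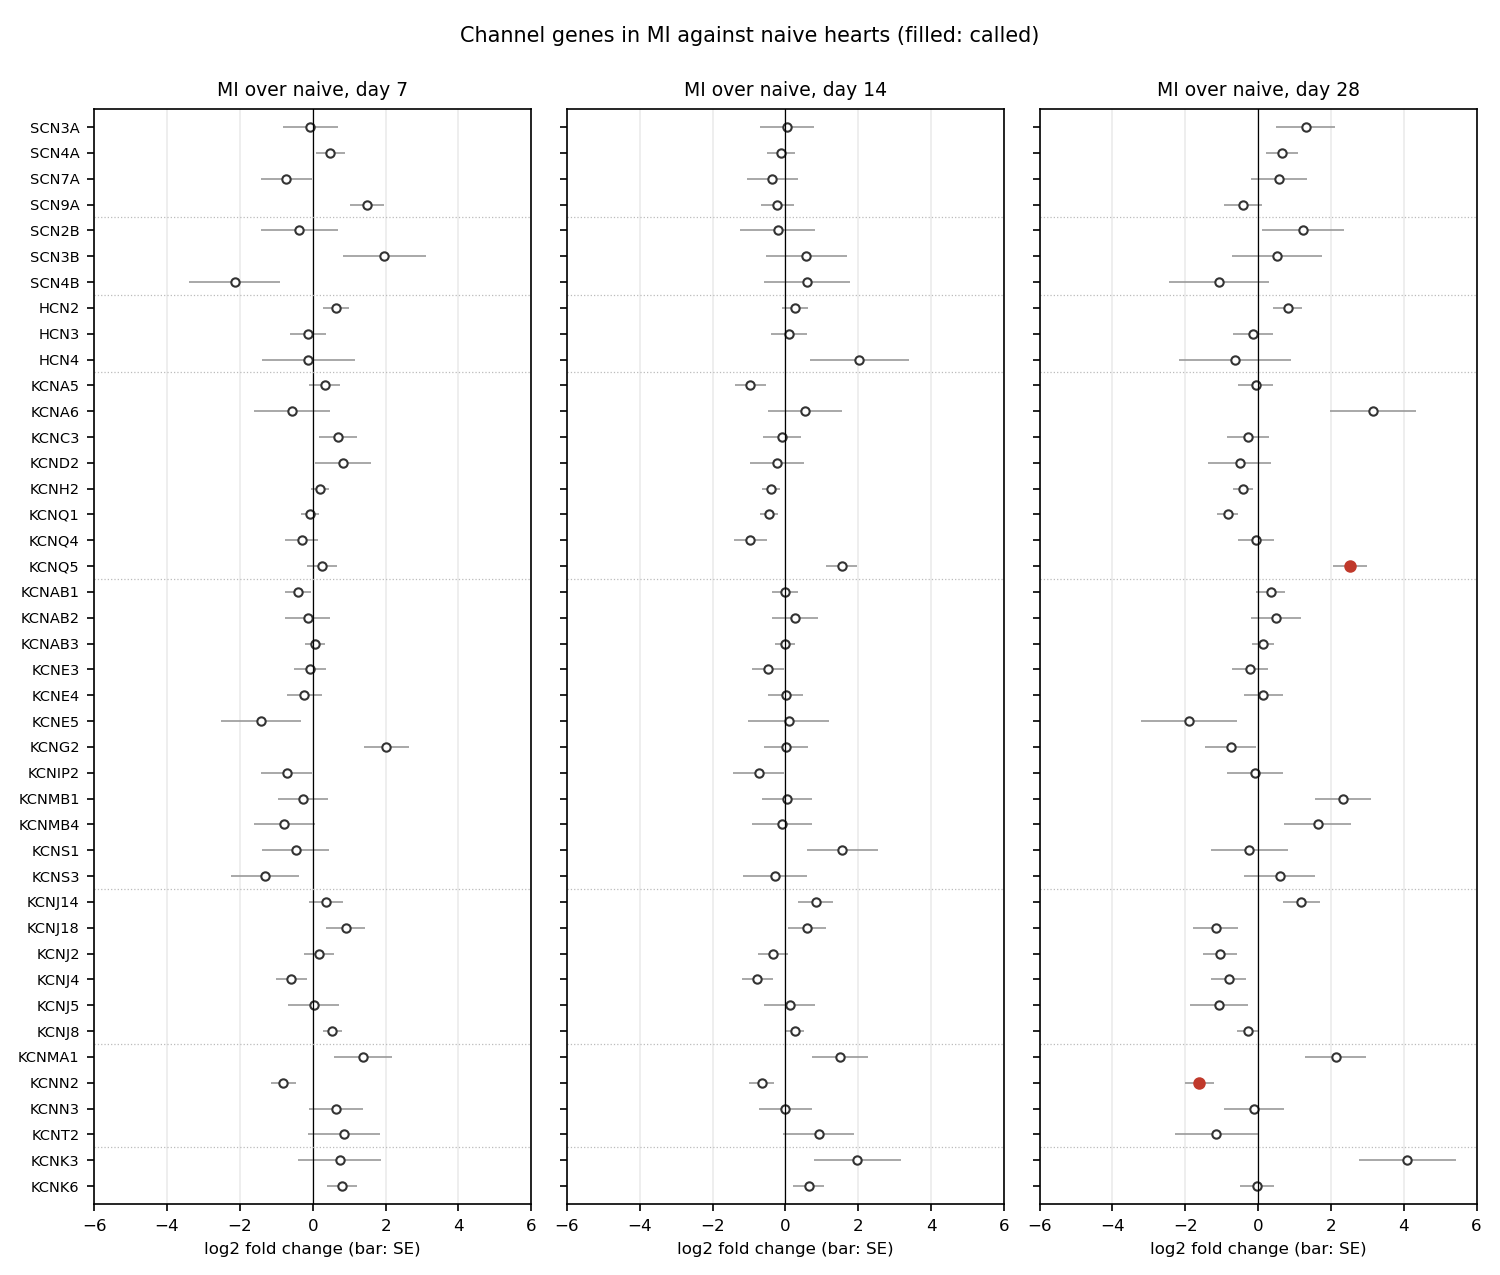
Log2 fold change of 42 of the 45 members, MI over naive hearts, on days 7, 14 and 28; bars are standard errors and filled points are called by edgeR at an adjusted p under 0.05. The called points are KCNQ5 and KCNN2 on day 28; the long bars belong to low-level members such as KCNK3, HCN4 and SCN4B.

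On day 7, edgeR called 0 members, with 3 at an unadjusted p under 0.05 (12.4% of all genes). DESeq2 called 1 member (KCNG2), and 270 genes in all. With limma's voom and sample weights 6 members were called, and 13.3% of all genes. The 3 MI and 3 naive hearts did not overlap for 7 members (15.6%, against 24.3% of all genes tested). KCNG2, a silent subunit that modifies other potassium channels, had 3.04, 1.01 and 1.12 CPM in MI hearts, against 0.676, 0.297 and 0.300 CPM in naive hearts (adjusted p = 0.207 by edgeR for a log2 fold change of 2.02, SE 0.62). SCN9A, a sodium channel known from peripheral neurons, had 1.61, 1.66 and 1.60 CPM in MI hearts, against 0.379, 0.668 and 0.685 CPM in naive hearts (adjusted p = 0.219 by edgeR for a log2 fold change of 1.48, SE 0.47). On day 28 the direction was the opposite, also without overlap and not called. SCN9A then had 0.637 and 0.694 CPM in MI hearts, against 0.997, 0.738 and 0.914 CPM in naive hearts. KCNJ8 had 158, 143 and 97.3 CPM in MI hearts and 99.9, 90.9 and 82.9 CPM in naive hearts (0.54, adjusted p = 0.419 by edgeR), where the MI library that stood apart was the lowest of its group.

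On day 14, edgeR, DESeq2 and voom called 0 members, with 5 at an unadjusted p under 0.05 in edgeR (5.35% of all genes). The groups did not overlap for 6 members (13.3%, against 8.22% of all genes tested). KCNQ5, described above, was among the 6. KCNE3 had 7.69, 4.30 and 6.35 CPM in MI hearts, against 9.28, 8.42 and 7.94 CPM in naive hearts. KCNA5 had 13.1, 11.4 and 26.9 CPM in MI day 14 hearts, against 24.5, 26.6 and 49.2 CPM in naive day 14 hearts, which overlapped.

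Whether the MI effect changed with day was tested by interaction contrasts. For day 28 against day 7, edgeR called 0 members and 0.013% of all genes. At an unadjusted p under 0.05 there were 8 of the 45 members, against 19% of all genes. DESeq2 called 3 members, KCNQ5 among them, and 717 genes in all, while voom called 0 members and 0.215% of all genes. The MI effect on KCNQ5 was 2.26 higher on the log2 scale on day 28 than on day 7 (adjusted p = 0.111 by edgeR), and 1.44 higher without the 4 libraries that stood apart (adjusted p = 0.195). Leaving out MI day 28 replicate 1 brought 2 calls, KCNQ5 among them, leaving out MI day 28 replicate 2 brought 1 (KCNJ2), and leaving out the 4 libraries that stood apart brought 2 (KCNG2 and KCNJ2), where 2.32% of all genes were called. For day 14 against day 7, edgeR, DESeq2 and voom called 0 members, and edgeR called 0.00651% of all genes. At an unadjusted p under 0.05 in edgeR there were 5 of the 45 members, against 7.07% of all genes.

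In naive hearts alone, edgeR called 0 members and 0% of all genes in each of 5 comparisons between ages. The members at an unadjusted p under 0.05 numbered 3 of 45 for day 3 against day 1 (3.54% of all genes), 3 for day 7 against day 1 (5.44%), 1 for day 14 against day 7 (8.84%), 1 for day 28 against day 14 (1.15%) and 4 for day 28 against day 1 (5.27%). DESeq2 called 0 members in each, and voom 1, KCNJ8 on day 14 against day 7, where it called 6.04% of all genes. The groups did not overlap for 23 members (51.1%, against 36.9% of all genes) on day 3 against day 1, for 8 (17.8%, against 24.7%) on day 7 against day 1, for 6 (13.3%, against 16.9%) on day 14 against day 7, for 1 (2.22%, against 4.76%) on day 28 against day 14 and for 14 (31.1%, against 25.1%) on day 28 against day 1.

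The lowest library of all for both KCNH2 and KCNJ5 was naive day 1 replicate 2. KCNH2 had 74.9 and 55.0 CPM on day 1, 121 and 92.5 CPM on day 3, 106, 82.7 and 85.4 CPM on day 7, 64.9, 115 and 126 CPM on day 14 and 98.9, 95.3 and 107 CPM on day 28. Day 28 was above day 1 without overlap (log2 fold change 0.63, SE 0.28, adjusted p = 0.867 by edgeR). KCNJ5 had 151 and 15.9 CPM on day 1, 462 and 259 CPM on day 3, 304, 52.2 and 194 CPM on day 7, 155, 254 and 303 CPM on day 14 and 200, 175 and 342 CPM on day 28. KCNJ5 on day 28 was likewise above day 1 (1.52, adjusted p = 0.867 by edgeR), and naive day 7 hearts alone spanned 52.2 to 304 CPM.

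Several members varied widely between pigs of 1 group. SCN3B, a beta subunit, had 91.9 CPM in naive day 1 replicate 2 and 52.8 CPM in MI day 7 replicate 1, against 1.52 to 10.8 CPM in the other 19 libraries. The next highest, 10.8 CPM, was naive day 7 replicate 2. The 12 atrial and nodal markers present summed to 1955 CPM in MI day 7 replicate 1, the highest of all libraries, to 717 CPM in naive day 7 replicate 2, to 383 CPM in naive day 1 replicate 2 and to 72.3 to 587 CPM in the other 18. Of these 12, NPPA stood at 1398 CPM and MYL4 at 484 CPM in MI day 7 replicate 1, and at 234 and 79.4 CPM in naive day 1 replicate 2. Naive day 28 replicate 3 had a higher sum than the latter, 587 CPM, with the lowest SCN3B of the 21 libraries, 1.52 CPM. Naive day 3 replicate 1 had a sum of 488 CPM with 2.42 CPM of SCN3B. Naive day 1 replicate 2 also held the lowest KCNJ5 and the highest KCNS1 (4.77 CPM) of the 21 libraries. The part of tissue sampling in these levels was not tested. The fitted difference of SCN3B on day 7 (1.96, SE 1.14, adjusted p = 0.503 by edgeR) rests on that MI heart, as the other 2 had 3.68 and 2.14 CPM against 2.30, 10.8 and 1.95 CPM in naive day 7 hearts.

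KCNK3 spanned 0.0735 to 11.2 CPM over the libraries and KCNT2, a sodium-activated potassium channel, 0.974 to 26.7 CPM, with 0.974, 17.9 and 2.20 CPM within the naive day 7 group. KCNMA1 was highest in MI day 14 replicate 2 (7.16 CPM), the library of that group with the most fibroblast marker RNA (17038 CPM), and had 1.48 and 0.716 CPM in the other MI day 14 hearts. In MI day 28 hearts KCNMA1 had 3.23 CPM beside 1927 CPM of fibroblast markers in replicate 1, and 5.96 CPM beside 20373 CPM in replicate 2. The part of fibroblasts in these levels was not tested. KCNE5, HCN4 and KCNA6 each had 0 reads in 1 library. By contrast KCNAB3 (2.67 to 4.83 CPM), KCNH2, KCNQ1, KCNJ8, SCN4A (0.857 to 2.27 CPM) and KCNAB1 (0.978 to 2.80 CPM) each differed by less than 3-fold between the highest and the lowest library.

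**Figure D4:**
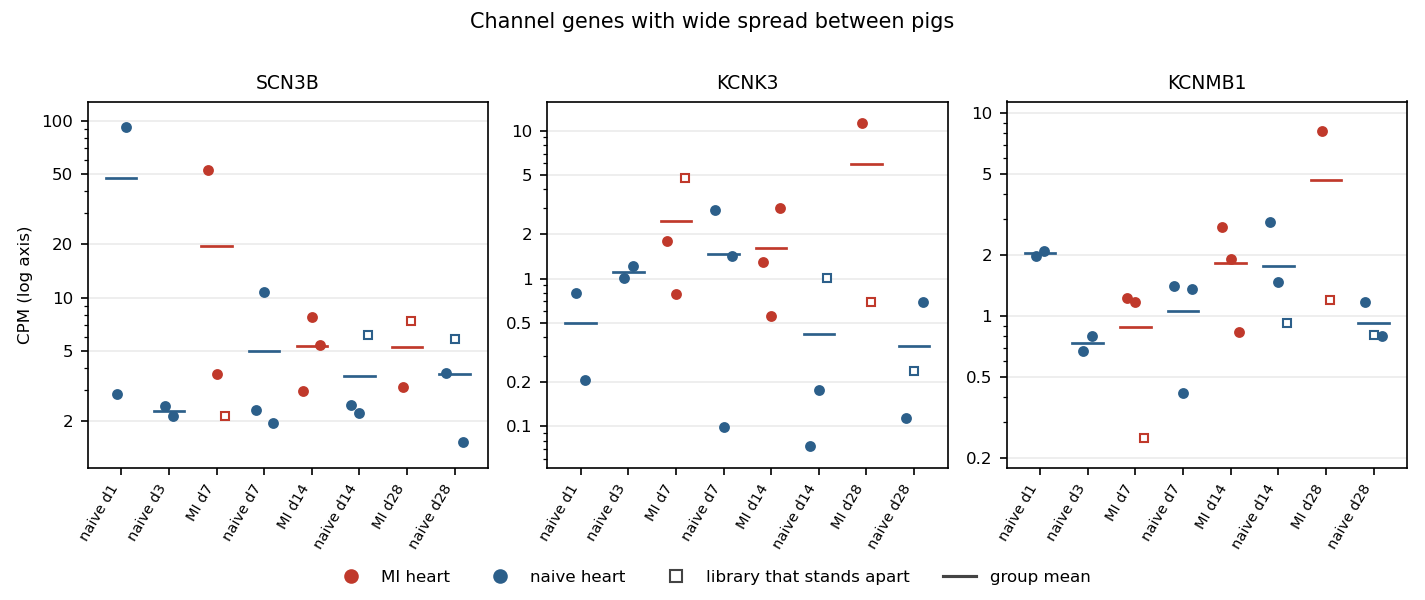
Level of SCN3B, KCNK3 and KCNMB1 in each library, in CPM on log axes, by group; points are pigs, open squares the 4 libraries that stood apart, and lines group means. SCN3B is high in 1 naive day 1 and 1 MI day 7 heart, and KCNK3 and KCNMB1 in 1 MI day 28 heart.

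Genes that work with these channels were read from 3 lists. Of all genes tested on day 28, 4.47% were called higher and 2.38% lower, with a median log2 fold change of 0.00. Of 24 other cardiac ion transport genes tested, 1 (4.17%) was called higher and 0 lower in MI day 28 hearts, with a median log2 fold change of -0.35. It was CACNA1H, a T-type calcium channel pore of fetal and nodal heart, with 51.0 and 41.1 CPM in MI hearts, against 9.54, 13.5 and 7.26 CPM in naive hearts (2.19, adjusted p = 0.0139 by edgeR). Its call held without the 4 libraries that stood apart (2.61, adjusted p = 0.00786) and was lost without naive day 28 replicate 3 (adjusted p = 0.0790). Of 9 alternative settings of the processing, the day 28 call held in 7. Averaged over days CACNA1H was higher by 1.26 (adjusted p = 0.0144 by edgeR), also without each of the 17 libraries in turn.

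Of 18 channel partners and regulators tested, 3 were called lower (16.7%, against 2.38% of all genes) and 0 higher on day 28, with a median of -0.44. SLMAP, a membrane protein linked to sodium channel trafficking, had 193 and 246 CPM in MI hearts, against 572, 754 and 527 CPM in naive hearts (-1.49, adjusted p = 0.0180 by edgeR). Its call was lost without MI replicate 1, naive replicate 2 or naive replicate 3 (adjusted p = 0.0549, 0.0520 and 0.0563). BVES and POPDC2, cyclic AMP-binding partners of potassium channels, were at 120 and 118 CPM and at 79.8 and 85.9 CPM in MI hearts, against 237 to 364 CPM and 165 to 215 CPM in naive hearts. Both were called (adjusted p = 0.0409 and 0.0288 by edgeR), and both calls were lost without any 1 of the 5 libraries (adjusted p 0.0509 to 0.127) and without the 4 libraries that stood apart (adjusted p = 0.102 and 0.0728). Of 27 transcription factors of conduction and rhythm genes, 1 was called higher (NR2F2, 1.08) and 2 lower (HAND1, -1.49, and PRDM16, -1.31). That is 11.1%, against 6.86% of all genes, and the median of the 27 was -0.40. The NR2F2 call held only without MI replicate 1 and was lost without each of the other 4 day 28 libraries (adjusted p 0.0522 to 0.214). The HAND1 call was lost without MI replicate 1, naive replicate 2 or naive replicate 3 (0.0603 to 0.111), and the PRDM16 call held only without naive replicate 1 (0.0642 to 0.135 otherwise). Without the 4 libraries that stood apart the NR2F2 and PRDM16 calls were lost (adjusted p = 0.133 and 0.126), while the HAND1 call held (-2.15, adjusted p = 0.00721), as did that of SLMAP (adjusted p = 0.0497). The lower cardiomyocyte markers of the MI day 28 hearts stand beside these differences too. Of 9 alternative settings, the day 28 call held in 7 for SLMAP, 6 for HAND1 and PRDM16, 5 for POPDC2 and 4 for BVES and NR2F2. On days 7 and 14, edgeR called 0 genes of the 3 lists and 0% of all genes.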

How the data were processed

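Total RNA of 21 pig hearts was measured by RNA sequencing, and groups were taken from the sample labels. The values the authors deposited are raw counts of reads for 25880 Ensembl genes in 21 libraries. The submitters' processing notes name Trim Galore, STAR 2.5.2, HTSeq 0.6.1, DESeq2 and the Sscrofa11.1 genome. Annotation release and strand setting: not given in the sources used here.

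Genes were kept with filterByExpr on the 8 groups (15359 genes), library sizes were scaled with TMM (trimmed mean of M values), and a model with 1 mean per group was fitted over the 21 libraries with edgeR 4.0.16 (glmQLFit, robust, 13 residual degrees of freedom, biological coefficient of variation 0.373, in R 4.3.3). Contrasts were tested two-sided with the quasi-likelihood F-test and adjusted by Benjamini-Hochberg over the 15359 genes, for 11 comparisons. The standard error (SE) of a log2 fold change comes from its F statistic. CPM uses TMM-scaled library sizes, except for the 1 CPM limit, which uses total counts. Counts of 2 libraries of a group differed by 43.8 to 779 times the variance that counting alone gives (chi-square per degree of freedom, 18 pairs), so none was a repeat of another. The spread between pigs, more than counting error, limits the precision.

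The members, gene lists and tests were chosen with earlier results of these data known. Every called member and 31 genes of the cardiac action potential, where members, were to be named, but some of these, with their values, are not reported here; KCNA6, KCNE5, KCNG2, KCNJ14, KCNJ18, KCNS1, KCNT2, the KCNAB genes, KCNN3, SCN3A, SCN4A, SCN7A, SCN9A and HCN3 were named after their values were seen, as were the called genes of the lists. Of the core names, KCNJ11 and KCNJ12 were not analysed here. Gene names were in the deposited table for 17947 genes, and 807 were added from a reference table by gene ID for the lists only. Positions, exon lengths and upstream windows come from RefSeq on Sscrofa11.1, matched by symbol. Alternatives were other scalings, filters and tests (DESeq2 1.42.0, voom of limma 3.58.1), handling of the 4 libraries that stood apart, fits on the compared groups alone and leaving out each library. Scripts were tested on simulated data. Figures were drawn with matplotlib 3.10.9.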

Additional observations from a re-analysis of the deposited data

How the results depend on the processing

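The count of members called was 0 on day 7, 3 on day 28, 3 for the average over days and 0 for the day 28 minus day 7 difference of MI effects. On day 7 it was 1 with DESeq2 and 6 with voom. On day 28 it was 5 without the 4 libraries that stood apart, 0 with only the compared groups, 7 with DESeq2, 1 with voom and 1 to 4 with a library left out: 4 without MI day 28 replicate 1 or 2, and 1 (KCNQ5) without any naive day 28 library. Of all genes, voom called 0.313% on day 28. Counts of genes called by DESeq2 are given without a share of the genes it tested. For the average over days the count of members was 6 with DESeq2 (1625 genes in all) and 6 with voom (4.25% of all genes). It was 2 to 5 with a library left out, the 5 without MI day 14 replicate 1 or naive day 14 replicate 1. For the difference of MI effects it was 2 without the 4 libraries, 1 with only the compared groups, 3 with DESeq2 and 0 to 2 with a library left out. For naive day 14 against day 7 it was 1 with voom. The other comparisons gave 0 to 0 when a library was left out. All these leave-one-out counts are of members only, with no share of all genes beside them. Of 182 recomputed counts of members, 163 stayed within 1.5 times and 19 moved. A count that stayed at 0 was taken as unmoved. Most comparisons had 0 members called to begin with, so the 163 says little on stability. No called log2 fold change turned its sign. Over all genes, the day 28 count of 1053 was 429 with total counts only, 646 with a term for the 4 libraries, 2 with only the compared groups, 2213 with DESeq2 and 48 with voom, and the average over days was 415 with total counts only and 1625 with DESeq2, beside 681. The median log2 fold change of all genes on day 28 was 0.00, 0.07 with DESeq2-style size factors in edgeR and 0.05 with total counts only. The cause of these shifts was not tested. The alternatives for the called list genes, and the values of members outside the core list without the 4 libraries, were added after the data had been seen. No paired analysis was possible because the labels give no replicate numbers shared between groups. With 2 MI hearts on day 28, 1 library weighs heavily, and members near 1 CPM rest on 37.0 to 95.6 reads per library. Values well under 1 CPM rest on fewer. HCN4 had 3 and 15 reads in MI day 28 hearts, against 9, 1 and 33 reads in naive day 28 hearts. SCN4B had 5 and 31 reads, against 21, 2 and 93, and SCN2B had 3 reads in MI day 28 replicate 1.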
